A study of Saccharomyces cerevisiae with 4 samples.

Results

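The genes described here are 6 reductases of Saccharomyces cerevisiae, chosen by their systematic names: GRE2 (YOL151W), GRE3 (YHR104W), YPR1 (YDR368W), ARA1 (YBR149W), YDL124W and YJR096W. They are 6 of the 6172 genes and unmatched reading frames on the arrays. Each was represented by 1 feature, and each had a value on all 4 arrays. The strain lacked RLM1, the gene of a transcription factor that acts last in cell wall integrity signalling, so treated and untreated cells alike carried the rlm1 mutation. Cells grew in YEPD, a rich medium, at 24 °C. The culture was split, one part received zymolyase, an enzyme preparation that digests wall glucan, at 5 units per ml, and the other part received none. RNA was taken at 3 hours and hybridised to 2-colour arrays, each of which set RNA of zymolyase-treated cells against RNA of untreated cells. The design text gives 2 cultures, each on 2 arrays with the dyes exchanged, so 4 arrays hold 2 independent cultures. There is no strain with RLM1 among these arrays, and the part of Rlm1 in any value was not tested.

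Carbonyl and aldo-keto reductases use NADPH to turn aldehydes and ketones into alcohols, and they are known for removing reactive carbonyls such as methylglyoxal, a by-product of glycolysis. Gre3, Ypr1, Ara1 and the products of YDL124W and YJR096W belong to the aldo-keto reductase family, whereas Gre2 belongs to the short-chain dehydrogenase and reductase family. The name GRE stands for genes raised in stress. GRE2 is a well-known target of the osmotic stress kinase Hog1 through the factor Sko1, and GRE3 is raised by several stresses in wild-type yeast.

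A value is the log ratio of an array's channels, taken as log2, with the sign set so that a positive value means more RNA in zymolyase-treated cells. The labels state which dye each RNA carried (zymolyase in Cy3 on arrays 1 and 3, in Cy5 on arrays 2 and 4), but neither which channel was divided by the other nor whether the ratios were already turned for the dye exchange. The direction given here is therefore likely rather than settled. It rests on the stress genes with the largest values, such as HSP12 (mean log2 ratio 2.75) and GPD1 (1.84), being raised by zymolyase. GRE2 and GRE3 are osmotic stress genes themselves, so their direction is no independent evidence for that reading. With the channels divided the other way, every sign below turns. With the ratios taken as already turned, the means differ instead and only some signs turn: GRE2 had 0.32 and GRE3 -0.18. That reading gives HSP12 and GPD1 opposite signs in the Cy3 and Cy5 orientations. Turned as here, both had the same sign on every array. HSP12 was then at 3.22, 3.09, 2.52 and 2.17 on arrays 1 to 4, and GPD1 at 2.37, 2.20, 1.42 and 1.38.

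RLM1 had no value on any array, so its absence could not be checked. The arrays held values for 4787 to 5624 genes, and array 2 had both the fewest values and the widest spread, with an SD over features of 0.63 against 0.32 to 0.35 on the others. Over the 4730 genes with a value on all arrays, arrays of the same dye orientation correlated at r = 0.60 (1 and 3) and 0.44 (2 and 4), and arrays of opposite orientation between -0.13 and 0.05 after turning. In limma, 111 of these genes passed higher with zymolyase and 38 lower. Centring each array on its median gave 83 and 14, and scaling the arrays to the same spread gave 88 and 15.

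GRE2, YPR1 and GRE3 rose with zymolyase, by 2.68-fold, 1.75-fold and 1.49-fold, and YDL124W, YJR096W and ARA1 did not pass the test. A gene passed where the Benjamini-Hochberg adjusted p of limma, over all genes tested, was under 0.05 in both possible assignments of arrays to cultures, and the larger p is given. Thus 3 of the 6 reductases were called higher and none lower, where 2.35% of all genes tested were called higher and 0.803% lower. The median of the 6 means was 0.45, beside -0.01 over all genes tested. With a dye term fitted to the 4 arrays, GRE2 and YPR1 passed, and 1.44% of all genes tested were called higher. With the arrays averaged by culture, GRE2 alone of the 6 passed without array 1, 2 or 4, where 0.38%, 0.428% and 0.168% of all genes tested were called higher, and none of the 6 passed without array 3, where 0.359% were. With a dye term and 1 array left out, GRE2 passed without array 1, 2 or 3, where 0.633%, 0.428% and 0.824% of all genes tested were called higher. Without array 4 GRE2, YPR1 and GRE3 passed in that fit, where 8.82% were called higher. At an unadjusted p under 0.05 in both assignments stood 4 of the 6, beside 12.5% of all genes tested.

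**Figure D1:**
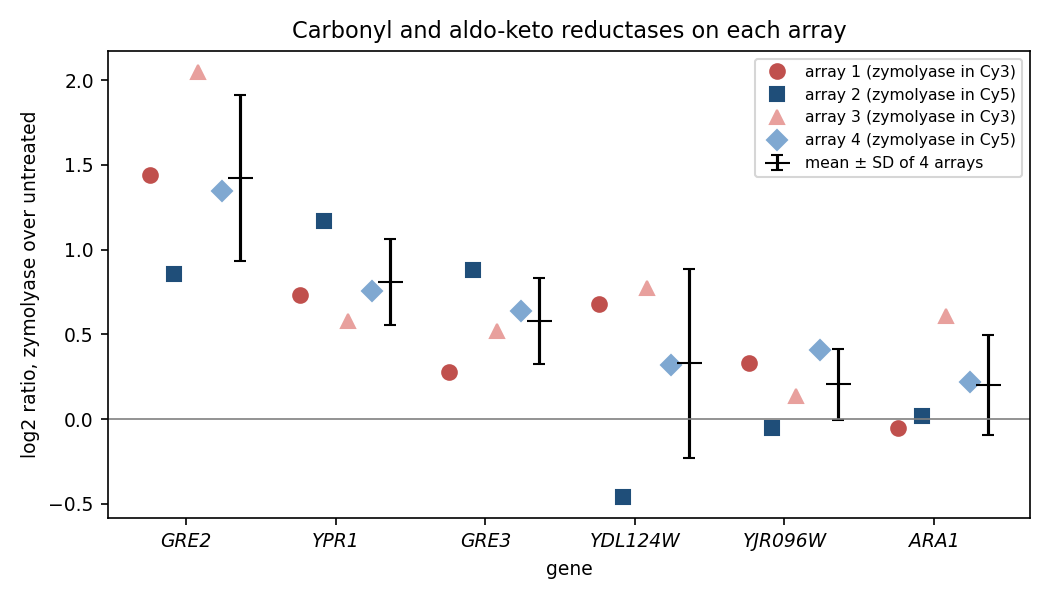
Log2 ratio of zymolyase over untreated (vertical axis) for each of the 6 reductase genes, with 1 symbol per array, red for zymolyase in Cy3 and blue for zymolyase in Cy5, and a black bar for the mean ± SD of the 4 arrays. All 4 values of GRE2, YPR1 and GRE3 lie above 0, while YDL124W, YJR096W and ARA1 each have 1 array below 0.

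GRE2 encodes a methylglyoxal and branched-chain aldehyde reductase. Its log2 ratio was 1.44, 0.85, 2.05 and 1.35 on arrays 1 to 4. All 4 arrays were thus on the zymolyase side, with array 3 highest and array 2 lowest. The mean was 1.42 ± 0.49 (SD, n = 4 arrays), with a 95% interval from limma of 1.10 to 1.74 (adjusted p = 1.06e-15). GRE2 ranked 10 from the top among 4730 means, and 17, 263, 2 and 15 on arrays 1 to 4. Array 2 thus placed it well below the top, and array 3 near it. With a dye term the adjusted p of limma was 0.00036. Without array 3 the mean weighted by culture was 1.19 and the call was lost (adjusted p = 0.054).

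GRE3 encodes the aldose reductase of yeast, which reduces xylose and methylglyoxal. Its log2 ratio was 0.28, 0.88, 0.52 and 0.64 on arrays 1 to 4. The order of the arrays was unlike that of GRE2: array 2, the lowest for GRE2, was the highest for GRE3. The mean was 0.58 ± 0.25 (SD, n = 4 arrays), with a 95% interval of 0.26 to 0.90 (adjusted p = 0.016 in limma). This lies just above the smallest called size of 0.51 on the log2 scale. The call was lost with a dye term (adjusted p = 0.055), with each array centred on its median (0.055), and without array 1, 2, 3 or 4 in turn, where the mean weighted by culture ran between 0.46 and 0.70 (adjusted p between 0.27 and 0.84).

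YPR1 encodes a broad aldehyde reductase that takes branched-chain aldehydes among its substrates. Its log2 ratio was 0.73, 1.17, 0.58 and 0.76 on arrays 1 to 4. As for GRE3, array 2 was the highest, and the other 3 arrays lay close together. The mean was 0.81 ± 0.25 (SD, n = 4 arrays), with a 95% interval of 0.49 to 1.13 (adjusted p = 7.6e-05 in limma, and 0.010 with a dye term). It ranked 36 from the top, and GRE3 ranked 91. The call was lost without array 1, 2, 3 or 4 in turn, where the mean weighted by culture ran between 0.68 and 0.91 (adjusted p between 0.066 and 0.28).

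ARA1 and YJR096W encode enzymes that act on pentoses. Ara1 is an arabinose dehydrogenase that also reduces carbonyls, and the product of YJR096W reduces xylose and arabinose. ARA1 had log2 ratios of -0.05, 0.02, 0.61 and 0.22 on arrays 1 to 4. Only array 3 stood clearly above 0. The mean of ARA1 was 0.20 ± 0.30 (SD, n = 4 arrays; 95% interval -0.12 to 0.52; adjusted p = 0.70 in limma), and 0.06 as the plain mean without array 3. YJR096W had 0.33, -0.06, 0.13 and 0.41, with array 2 the one below 0. Its mean was 0.20 ± 0.21 (SD, n = 4 arrays; 95% interval -0.11 to 0.52; adjusted p = 0.69 in limma). The upper ends of both intervals reach the smallest called size, so a change of that size in either gene was not excluded by these arrays.

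YDL124W encodes an alpha-keto amide reductase. Its log2 ratio was 0.68, -0.46, 0.77 and 0.32 on arrays 1 to 4. Arrays 1 and 3 were high and array 2 was on the untreated side. The mean was 0.33 ± 0.56 (SD, n = 4 arrays; 95% interval 0.01 to 0.65), the widest spread of the 6 genes. The unadjusted p was 0.042 and the adjusted p 0.37 in limma. Without array 2 the plain mean was 0.59, and the adjusted p of limma, with the arrays weighted by culture, was 0.096. Without array 1 or array 3 the plain mean was 0.21 or 0.18.

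In the fit of culture means the standard error was 0.16 for every gene, since limma estimated an infinite prior from 1 residual degree of freedom per gene. The adjusted p values of that fit thus restate the size of the mean and take no account of a gene's own spread. In the fit with a dye term the standard error differed between genes, from 0.13 for GRE3 to 0.15 for YDL124W among the 6; that fit counts the 4 arrays as independent. An exact sign-flip test over the 4 arrays could not go below 0.125 two-sided, nor one over 2 cultures below 0.50. RNA came from whole cultures, so fewer cells with an RNA and less of that RNA per cell cannot be told apart.

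The means of all 6 reductases were above 0, as were those of 47.4% of all genes tested. All 4 arrays were above 0 for 3 of the 6, beside 7.99% of all genes tested. Array 2 was the lowest array for GRE2, YDL124W and YJR096W and the highest for GRE3 and YPR1.

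**Figure D2:**
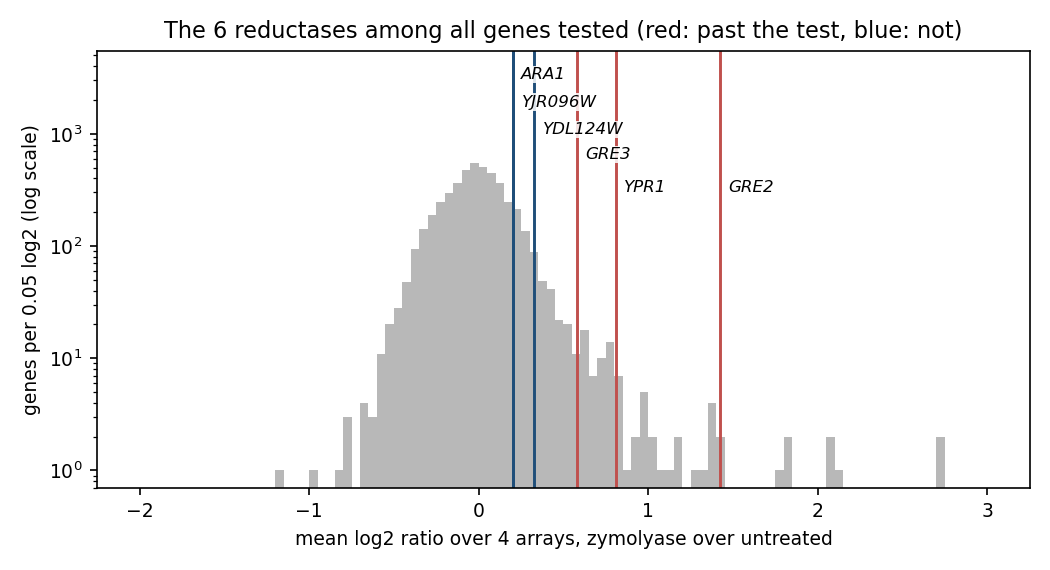
Number of genes (vertical axis, log scale) by mean log2 ratio over the 4 arrays in steps of 0.05 (horizontal axis), for the 4730 genes tested, with a vertical line for each of the 6 reductases, red where it passed the test and blue where it did not. GRE2 at 1.42 lies in the far right tail, YPR1 and GRE3 on its shoulder, and the lines of ARA1 and YJR096W, both at 0.20, coincide.

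By mean log2 ratio the order was GRE2, YPR1, GRE3, YDL124W, YJR096W and ARA1. GRE2 exceeded YPR1 by 0.61 ± 0.73 (mean difference in log2 ratio, SD over 4 arrays), on 3 of 4 arrays; on array 2 it was 0.31 below. GRE2 was above YDL124W, YJR096W and ARA1 on all 4 arrays, by 1.09, 1.22 and 1.22 on average. YPR1 exceeded GRE3 on all 4 arrays, by 0.23 ± 0.18. The difference between GRE2 and YPR1 lay within its spread, as did those of the neighbours below GRE3. The difference between GRE3 and YDL124W was 0.25 ± 0.79, between YDL124W and YJR096W 0.12 ± 0.46, and each was positive on 2 of 4 arrays. YJR096W and ARA1 had the same mean to within 0.0047 log2, with an SD of 0.37 over the arrays.

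The difference between the dye orientations was positive for 4 of the 6 genes and negative for GRE3 and YPR1. GRE2 averaged 1.75 where zymolyase RNA carried Cy3 and 1.10 where it carried Cy5, a difference of 0.64. YDL124W had 0.73 in the Cy3 orientation and -0.07 in the Cy5 one. Its difference of 0.80 was larger in size than that of 87.9% of the genes tested. GRE3 and YPR1 had 0.40 and 0.66 in Cy3 and 0.76 and 0.96 in Cy5. ARA1 and YJR096W differed by 0.16 and 0.06. The median size of this difference over all genes tested was 0.33. With 2 arrays an orientation it was not tested, and an equal dye effect cancels in the culture means.

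**Figure D3:**
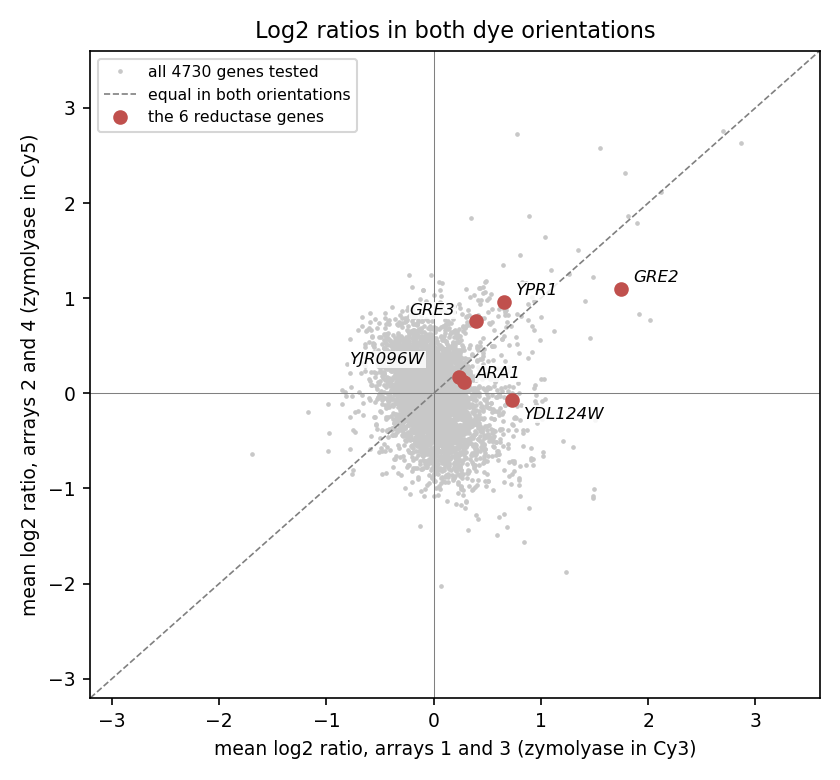
Mean log2 ratio of arrays 2 and 4 (zymolyase in Cy5, vertical axis) against that of arrays 1 and 3 (zymolyase in Cy3, horizontal axis), grey for all 4730 genes tested and red for the 6 reductases, with a dashed line where both are equal. GRE2 and YDL124W lie below the line, GRE3 and YPR1 above it, and YDL124W alone of the 6 has a negative mean in Cy5.

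Which arrays came from one culture is not labelled, so the means of each possible pair were compared. For GRE3 the pair means were 0.58 and 0.58 with array 1 joined to 2 and array 3 to 4, and 0.46 and 0.70 with array 1 joined to 4 and array 2 to 3. For YPR1 they were 0.95 and 0.67 in the first assignment and 0.74 and 0.87 in the second. For GRE2 they were 1.15 and 1.70 in the first and 1.39 and 1.45 in the second. All pair means of these 3 genes were above 0 in both assignments. ARA1 had -0.01 and 0.41 in the first and 0.08 and 0.32 in the second.

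The genes most like each called reductase, by the smallest Euclidean distance over the 4 log2 ratios among named genes tested, were different for each. Nearest to GRE2 were SPI1, a wall protein gene, at a distance of 0.87, DDR48, a stress gene, at 0.89, and GPP2 of glycerol synthesis at 1.01. Nearest to GRE3 were the glutamate dehydrogenase gene GDH2 at 0.16, MSB2, an osmosensor gene, at 0.22, and KRE6 of glucan synthesis at 0.24. Nearest to YPR1 were PRX1, a mitochondrial peroxiredoxin gene, at 0.19, FIR1 at 0.23 and DCS2 at 0.24. Of these 9 genes MSB2 did not pass the test (0.49 ± 0.27, SD, n = 4 arrays; adjusted p = 0.072 in limma), and the other 8 rose. Without array 4 all 8 lost the call (adjusted p of limma between 0.052 and 0.88, arrays weighted by culture). In the same fit, without array 1, 2 or 3 in turn, GDH2, KRE6, PRX1, FIR1 and DCS2 lost it too, as DDR48 did without array 1 or 3. The distances describe 4 arrays and carry no test. Genes chosen for values close to those of a called reductase tend to pass too, so their calls are no separate result. The same holds for the sets being different, as the called reductases differ in mean.

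Among other enzymes of the same families, 1 gene rose, where 2.35% of all genes tested were called higher and 0.803% lower. ARI1, a short-chain reductase gene related to GRE2, had log2 ratios of 0.79, 1.27, 0.87 and 1.07 on arrays 1 to 4. These values are high on every array, with array 2 highest. The mean was 1.00 ± 0.22 (SD, n = 4 arrays; adjusted p = 1.48e-07 in limma, 0.0017 with a dye term), and it ranked 23 from the top. The call of ARI1 was lost without array 1, 2, 3 or 4 in turn, where the mean weighted by culture ran between 0.89 and 1.09 (adjusted p of limma between 0.051 and 0.20), and was made without each array with a dye term (0.0058 to 0.049). The other 2 relatives of GRE2, YGL039W and YDR541C, had means of 0.08 and 0.09 and did not pass. No further aldo-keto reductase gene passed: of 10 listed, 9 were on the arrays and 7 were tested in limma, with a median of -0.02. A count of 0 among 7 is near the shares over all genes tested. At an unadjusted p under 0.05, as in 12.5% of all genes tested, there was 1, GCY1. With a dye term none passed, where 1.44% of all genes tested were called higher. GCY1, the known close relative of YPR1, had -0.12, 0.98, 0.02 and 0.39 on arrays 1 to 4, and a mean of 0.32 ± 0.49 (SD, n = 4 arrays; adjusted p = 0.40 in limma). Its values on arrays 1 and 3 lay near 0, where those of YPR1 were 0.73 and 0.58. Whether spots of such close relatives share labelled cDNA was not tested.

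**Figure D4:**
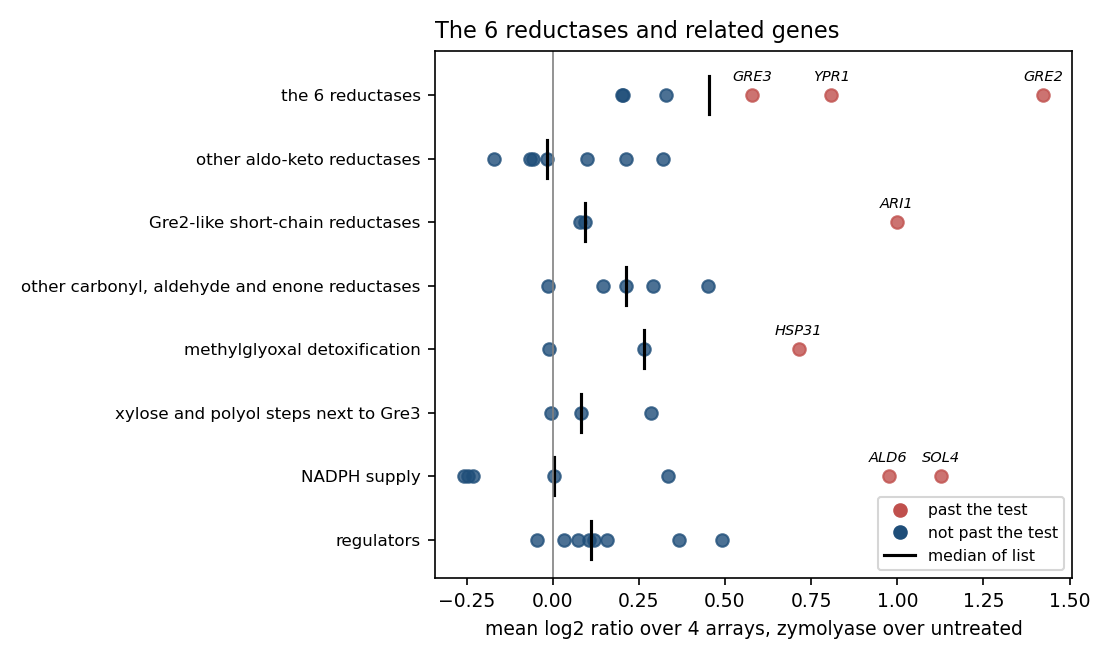
Mean log2 ratio over the 4 arrays (horizontal axis) of each tested gene of the 6 reductases and of 7 lists of related genes (rows), red where the gene passed the test and blue where it did not, with a black tick at the list's median. ARI1, HSP31, SOL4 and ALD6 are the related genes that passed, all above 0.

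In the pathways that border on these enzymes, 1 of 3 tested genes of methylglyoxal detoxification and 2 of 7 of NADPH supply rose, beside 2.35% of all genes tested. The methylglyoxal gene was HSP31, which encodes a glyoxalase (0.71 ± 0.74, SD, n = 4 arrays; adjusted p = 0.00081 in limma, 0.22 with a dye term). Arrays 1 and 2 gave it 0.04 and 0.11, whereas arrays 3 and 4 gave it 1.41 and 1.30. With the arrays weighted by culture HSP31 lost its call without array 1, 2, 3 or 4 in turn (adjusted p of limma between 0.42 and 0.96). GLO1 and GLO2, the main glyoxalase pathway, had means of 0.27 and -0.01 and did not pass. Of the 7 genes of NADPH supply none fell and 5 did not pass, with a median of 0.00. Those that rose were SOL4, a lactonase gene of the pentose phosphate pathway (1.13 ± 0.46), and ALD6, the cytosolic acetaldehyde dehydrogenase gene (0.97 ± 0.30; both SD, n = 4 arrays), with adjusted p in limma of 1.0e-09 and 3.4e-07. SOL4 lost its call without array 4 (mean weighted by culture 1.04, adjusted p = 0.13 in limma). ALD6 lost its call in that fit without array 1, 2, 3 or 4 in turn (0.84 to 1.06, adjusted p between 0.052 and 0.13). With a dye term and array 2 left out, SOL4 (fitted mean 0.98) and ALD6 (0.82) both lost their call. Both kept it in that fit without array 1, 3 or 4. ZWF1, the first enzyme gene of the pentose phosphate pathway, had a mean of 0.33 and did not pass.

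Over all genes tested, 2.35% were called higher and 0.803% lower, and with a dye term 1.44% were called higher. Counts of 0 in short lists such as the following are near these shares. None of 5 tested genes for other carbonyl, aldehyde and enone reductases passed in limma, and none with a dye term. At an unadjusted p under 0.05 stood 1, as did 12.5% of all genes tested. The gene at the unadjusted p was SFA1, a gene of formaldehyde removal, with a mean of 0.45 ± 0.41 (SD, n = 4 arrays; adjusted p = 0.12 in limma). None of 3 tested genes of the xylose and polyol steps next to Gre3 passed, none at an unadjusted p under 0.05 and none with a dye term; SOR2 had the largest mean, 0.28. Of 8 tested genes of Hog1, Sko1, Msn2, Yap1 and other regulators tied to these reductases, none passed in limma, 2 did at that unadjusted p and none with a dye term. MSN2 had the largest mean of them, 0.49 ± 0.43 (SD, n = 4 arrays; adjusted p = 0.068 in limma).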

How the data were processed

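The authors' deposited table gives each feature a log ratio between both channels, taken here as log2. For log base, numerator, scanner, background correction, normalization and rule for blank values the entry is: not given in the sources used here. Column medians lay between -0.07 and 0.02, and the values were used as deposited. Arrays 2 and 4 (zymolyase in Cy5, per the labels) were multiplied by -1. Of 6209 features, 2 controls were left out, 5711 matched a gene of the R64 reference table, used for names only, and 34 genes had several features, which were averaged. Genes with a value on all 4 arrays (4730) entered limma 3.58.1 (R 4.3.3), which fitted the mean of each culture's arrays and compared it with 0 (lmFit, eBayes), in both possible assignments of arrays to cultures. The fit was tested on simulated data. It called 11 of 81 genes with a true log2 size of 0.5, 56 of 56 at 1.0 and 63 of 63 at 2.0. Of 4530 unchanged genes it called 1. The simulated noise was independent between arrays and held no culture effect, so the sharing of a culture by arrays was not tested. Within an array that noise had the same spread for all genes, so false calls from genes of wider spread were not tested either. No intensities were used here, so how far spots stood above background is unknown, and precision is limited by having 4 arrays.

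The 6 genes, the related lists and the tests were chosen with earlier results of these data known. Genes named outside the 6 are those of a list that passed, or its largest mean where none passed, the 3 nearest genes of each called reductase, and others named after their values were seen. Those are YGL039W, YDR541C, GLO1, GLO2 and ZWF1 of the lists, HSP12 and GPD1 for the direction of the ratio, HOG1 for an array far from the others, OYE3, MSN4 and YPL088W as genes with values on some arrays, and DCP1, YSW1 and YOL150C as neighbours. The rule also named the closest relative by protein identity; no protein sequences were used here, and GCY1 was the largest mean of its list.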

Additional observations from a re-analysis of the deposited data

Results flagged for a closer look

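Of 51 genes checked (the 6 reductases, the related lists and the nearest genes), 2 had 1 array far from the other 3, with a gap to the nearest, divided by the range, above Dixon's 95% critical value; chance gives about 1 in 20. HOG1 was at 0.59 on array 2, against -0.09 to 0.02 on the others. KRE6 was at 0.95 on array 2, against 0.48 to 0.55 on the others. None of the 6 reductases was among them.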

How the results depend on the processing

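YDL124W, YJR096W and ARA1 stayed above 0 and short of the threshold under all 15 alternatives. GRE2 kept its call under 13 of 15, YPR1 under 7 and GRE3 under 5. Of the 15, 2 fit 1 assignment of arrays to cultures alone, where a gene called in both cannot lose its call. GRE3 had a mean of 0.58 and lost its call with a dye term and with median centring. Taking the deposited ratios as already turned gave GRE2 0.32 (adjusted p = 0.23 in limma), and no reductase passed (0 of 6). That reading also gives HSP12 and GPD1 opposite signs in the Cy3 and Cy5 orientations. In that setting these genes changed sign and did not pass: GRE3 at -0.18, YPR1 at -0.15, GCY1 at -0.37, ARI1 at -0.17, SFA1 at -0.29, SOR2 at -0.20, SOL4 at -0.32, ALD6 at -0.10, MSN2 at -0.22, GPP2 at -0.080, GDH2 at -0.25, MSB2 at -0.22, KRE6 at -0.11, PRX1 at -0.12, FIR1 at -0.11 and DCS2 at -0.14; such values would be dye differences if the ratios were not turned. Over all genes, 77 passed with a dye term, 97 with median centring and 316 with the ratios taken as already turned, against 149. With 1 array left out, over both fits (weighted by culture, and with a dye term), GRE2 ran from 1.19 to 1.65, GRE3 from 0.46 to 0.70 and YPR1 from 0.68 to 0.91. Between 0 and 3 of the 6 passed, and between 8 and 1027 of all genes (8 to 23 weighted by culture); 3 and 1027 came without array 4 with a dye term, and the cause was not tested. Leaving out an array unbalances the dyes.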

Other observations

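Genes related to these reductases with a value on some arrays were not tested. OYE3, an enone reductase gene, was at 1.01 and 1.17 on arrays 1 and 3, the arrays with zymolyase in Cy3, and had no value on arrays 2 and 4. MSN4, a general stress factor gene, was at 0.80, 0.76 and 0.25 on arrays 1, 3 and 4. YPL088W, a reading frame of the aldo-keto reductase family, was at 0.22, 0.07 and 0.35 on the same 3 arrays.

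Of 12 genes next to the 6 reductases on the chromosome 8 were tested in limma. None passed, beside 2.35% of all genes called higher and 0.803% lower, 2 did at an unadjusted p under 0.05, beside 12.5% of all genes, and none with a dye term. A count of 0 among 8 is near those shares. Their means lay between -0.46 (DCP1, beside GRE2) and 0.34 (YSW1, beside ARA1). YOL150C, a reading frame numbered next to GRE2 and absent from the reference table, was at 0.32, 0.53 and 0.34 on arrays 1, 3 and 4.

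The control feature named Arabidopsis had deposited ratios of -0.87, -0.82 and -0.64 on arrays 1, 3 and 4, before the turning done here. If the ratios were not already turned on deposit, it kept its sign when the dyes were exchanged.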
